A study of Mus musculus with 4 samples.

Results

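The genes described here are 39 genes of autophagy, the route by which a cell wraps its own proteins and organelles in a double membrane and delivers them to the lysosome. Members were taken by gene symbol from a named list, and each was read from probe sets that carry that symbol alone, using the probe set of highest mean over the 4 arrays. This gave 37 genes with a probe set. Of these, 36 passed the filter on dim probe sets and were tested among 13565 genes, while Atg4c was below the filter. Bnip3l appeared on 3 probe sets that also carry the symbol of a pseudogene, and Optn was not among the symbols used here, so neither was analysed here.

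The RNA was total RNA labelled as that of mouse mesangial cells, the contractile cells between the capillary loops of the kidney glomerulus. Of the 4 arrays, 2 were labelled low glucose and 2 were labelled as treated with transforming growth factor beta 1 (TGF-beta1), the cytokine best known for raising matrix production in these cells. The labels name no strain, dose, time or culture, nor the glucose given with TGF-beta1, so an effect of glucose and one of TGF-beta1 cannot be told apart. The question is which autophagy genes differ between the groups. No label says that arrays of 1 group were separate cultures, so the p-values reflect array-to-array spread that may be technical.

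Autophagosome formation starts with the ULK1 kinase complex and a phosphatidylinositol 3-kinase complex built on Becn1, which mark the membrane where the autophagosome grows. Atg9a vesicles and the Atg2 lipid transfer proteins supply lipid, and 2 ubiquitin-like conjugation systems attach the ATG8 proteins (the LC3 and GABARAP proteins) to the membrane. Cargo receptors such as Sqstm1 (p62) and Nbr1 bind both the ATG8 proteins and ubiquitin-tagged cargo and are themselves degraded with it. The protein levels of these receptors and the flux through the pathway also depend on steps after transcription, and mRNA arrays measure neither.

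Values are log2 intensities after a pseudocount of 46.88 and quantile normalisation, and differences are TGF-beta1 minus low glucose with n = 2 arrays per group. They understate the change of dim genes. The arrays fell into 2 array pairs by 18 spike-in control probe sets, which hold no RNA of the cells. Array pair 1 held low glucose replicate 1 and TGF-beta1 replicate 2, and array pair 2 held low glucose replicate 2 and TGF-beta1 replicate 1. Below, a gene "rose" or "fell" if limma, fitted with array pair as a block, gave it an adjusted p under 0.05, and errors after ± are the standard errors of that fit. That fit has 1 residual degree of freedom and takes each gene's spread from genes of like brightness. Without the block, limma called 0 of the 36 members and 0 of all genes (0%), with a smallest adjusted p of 1, and 1 member (Sqstm1) had an unadjusted p under 0.05, against 2.00% of all genes. With the block but the prior of 2.79 degrees of freedom estimated without it, limma again called 0 members, and 6 (16.7%) had an unadjusted p under 0.05, near the 16.5% of all genes.

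With the block, 2 of the 36 tested autophagy genes rose, 4 fell and 30 did not pass, which is 16.7% of the members against 18.5% of all genes tested. The share of autophagy genes called was thus near the background. The genes that rose were Sqstm1 and Foxo1 (5.56% of members, 7.89% of all genes), and those that fell were Nbr1, Ulk1, Gabarapl1 and Atg4a (11.1% of members, 10.6% of all genes). The median difference of the members was -0.04 (-0.02 within either pair), and that of all genes was -0.00012. Differences of at least 0.25 were seen in 3 members, Sqstm1, Foxo1 and Nbr1, or 8.33% against 10.3% of all genes, and 0 members reached 0.5, which 1.81% of all genes did.

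The promoters of the genes that rose, and of the ATG8 gene that fell, are printed because these members moved in opposite directions. Each runs from 250 bases before to 50 bases after the gene's start, 5′ to 3′ on the gene's strand, from RefSeq on GRCm38.p6. Capitals mark GGGCGG (the GC box) and CCAAT on either strand. The Sqstm1 window is chr11:50210771-50211070 on the minus strand, the Foxo1 window chr3:52268087-52268386 on the plus strand, and the Gabarapl1 window chr6:129532942-129533241 on the plus strand.
Sqstm1: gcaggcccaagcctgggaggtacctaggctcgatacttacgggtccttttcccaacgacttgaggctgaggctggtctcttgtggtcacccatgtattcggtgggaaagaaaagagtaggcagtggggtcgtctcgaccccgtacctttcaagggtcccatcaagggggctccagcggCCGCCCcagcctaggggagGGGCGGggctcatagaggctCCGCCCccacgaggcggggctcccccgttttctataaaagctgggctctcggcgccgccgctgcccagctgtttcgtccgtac
Foxo1: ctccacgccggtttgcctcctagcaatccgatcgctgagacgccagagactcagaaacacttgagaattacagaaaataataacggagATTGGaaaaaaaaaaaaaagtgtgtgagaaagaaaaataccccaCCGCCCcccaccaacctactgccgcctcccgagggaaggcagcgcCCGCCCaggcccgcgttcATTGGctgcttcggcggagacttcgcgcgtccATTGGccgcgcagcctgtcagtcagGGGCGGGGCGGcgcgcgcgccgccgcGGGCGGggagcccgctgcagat
Gabarapl1: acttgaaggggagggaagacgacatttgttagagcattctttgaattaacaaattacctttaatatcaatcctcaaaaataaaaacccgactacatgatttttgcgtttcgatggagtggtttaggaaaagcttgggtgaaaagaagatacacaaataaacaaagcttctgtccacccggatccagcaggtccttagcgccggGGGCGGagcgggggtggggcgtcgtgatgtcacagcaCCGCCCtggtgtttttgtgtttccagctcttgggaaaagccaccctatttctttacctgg
GGGCGG occurred 3 times in the Sqstm1 window, 5 times in that of Foxo1, where a pair of matches overlap, and 2 times in that of Gabarapl1. CCAAT occurred 3 times in the Foxo1 window. Of the 39 members, 32 matched a promoter by symbol, with 38 windows in all because some genes have several starts, and of 32851 windows of this length in the table GGGCGG was in 35.7% and CCAAT in 37.4%. Among the 38 member windows the shares were 60.5% and 28.9%. GGGCGG was in at least 1 window of each of the 6 members that rose or fell, so it did not separate those that rose from those that fell.

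The other motifs searched on both strands were CACGTG (the E-box core bound by TFEB and its relatives), TGTTTAC (the forkhead core), TGACNNNGC (the antioxidant response core) and TGAGTCA (the AP-1 site, which can overlap the antioxidant core). None of these was in the windows of the 6 members that rose or fell. CACGTG was in the windows of Atg3, Atg5, Atg7 and Atg14, that is 10.5% of member windows and 7.15% of all windows. TGACNNNGC was in those of Atg13, Map1lc3b, Tax1bp1, Ulk2 and Vmp1, 18.4% against 12.4%, TGTTTAC in 0 member windows against 3.65%, and TGAGTCA in 0 against 5.2%. These are matches of letters, not sites of binding, and motifs outside the windows were not searched.

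The cargo receptors held both the member that rose most and the one that fell most. Sqstm1, which gathers ubiquitinated cargo and also binds Keap1, was at 12.04 and 11.71 in low glucose replicates 1 and 2, against 12.22 and 12.35 in TGF-beta1 replicates 1 and 2. Both TGF-beta1 arrays were above both low glucose arrays. Its log2 difference was 0.41 ± 0.054 (1.33-fold; 0.31 in array pair 1 and 0.50 in array pair 2; limma with the block, adjusted p = 5.4e-12). The difference was 0.24 without low glucose replicate 2 and between 0.34 and 0.57 without any other array, each in the fit without the block. Another probe set of Sqstm1, nearer the filter, was at 0.14.

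Nbr1, a receptor of similar domain layout that works beside p62, was at 10.02 and 10.10 in the low glucose arrays and at 9.74 and 9.79 in the TGF-beta1 arrays. The groups did not overlap and the arrays of each group were close together. Nbr1 fell by 0.29 ± 0.082 on the log2 scale (1.22-fold; -0.23 and -0.36 within the pairs; limma with the block, adjusted p = 0.0041). Its second probe set was at -0.24, and leaving out any array left a difference between -0.33 and -0.26. Tax1bp1, a receptor that recruits autophagy machinery to ubiquitinated cargo, was at 8.77 and 8.77 in low glucose against 8.66 and 8.65 in TGF-beta1. Its groups did not overlap either, but the difference of -0.12 ± 0.074 did not pass (adjusted p = 0.302 with limma and the block), and its second probe set was at -0.12.

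**Figure D1:**
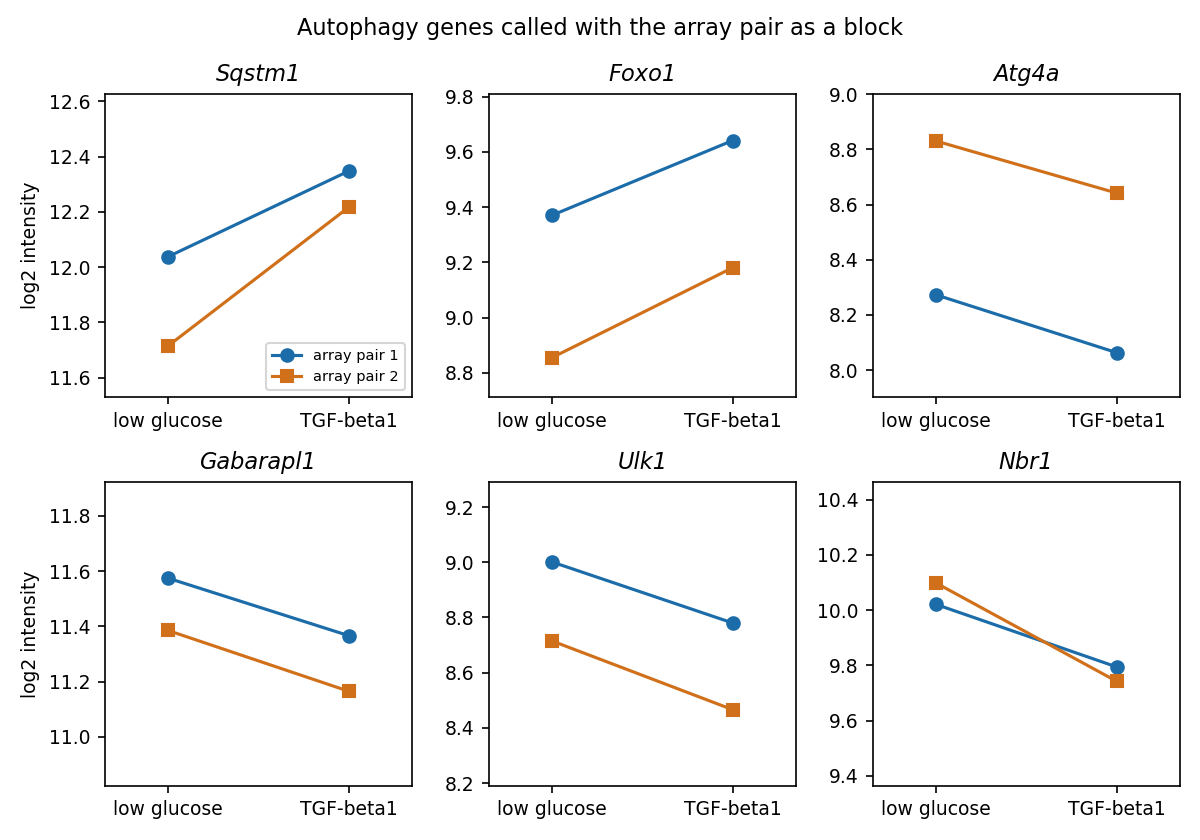
Log2 intensity of the 6 autophagy genes called with the array pair as a block, in low glucose and TGF-beta1, with a line joining the arrays of a pair (array pair 1 in blue circles, array pair 2 in orange squares). Both lines rise for Sqstm1 and Foxo1 and fall for the other 4, and for Foxo1, Ulk1 and Atg4a the pairs stand farther apart than the groups.

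Of the 5 ATG8 genes 1 fell, and the median difference of the 5 was 0.01. Gabarapl1, a member of the GABARAP branch and a known FOXO target, was at 11.57 and 11.39 in low glucose against 11.17 and 11.37 in TGF-beta1. Each TGF-beta1 array was below both low glucose arrays, but in the deposited intensities TGF-beta1 replicate 2 (2673) was above low glucose replicate 2 (2571). Gabarapl1 fell by 0.21 ± 0.066 (1.16-fold; -0.21 and -0.22 within the pairs; limma with the block, adjusted p = 0.010). Its tested probe set is of a kind that can match more than 1 transcript. The other probe set, which has no such mark, was at -0.29. On that set the groups overlapped, at 10.93 and 10.53 in low glucose against 10.31 and 10.56 in TGF-beta1. On the tested set, leaving out low glucose replicate 1 gave -0.12, TGF-beta1 replicate 1 -0.11, and either other array -0.31.

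Gabarap was at 12.06 and 11.85 in low glucose against 11.71 and 11.95 in TGF-beta1, so the groups overlapped, and its difference of -0.13 ± 0.058 did not pass (adjusted p = 0.115 with limma and the block). Gabarapl2 lay between 10.73 and 10.78 on all 4 arrays. The LC3 genes, whose lipidated products are the usual marker of autophagosomes, did not pass. Map1lc3b, the most used of these markers, was at 11.10 and 11.37 against 11.40 and 11.08, a difference of 0.01 ± 0.068, while its other kept probe sets were both at -0.12. Map1lc3a was at 11.49 and 10.89 against 11.06 and 11.57 (0.13 ± 0.068; 0.10 on its other probe set). On the tested probe sets of both LC3 genes the arrays sorted by array pair rather than by group. Another kept set of Map1lc3b did not: it was at 10.52 and 10.54 in low glucose against 10.46 and 10.35 in TGF-beta1.

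In the ULK1 complex, 1 of 4 genes fell. Ulk1, the kinase that starts autophagy and is inhibited by mTORC1, was at 9.0 and 8.72 in low glucose against 8.47 and 8.78 in TGF-beta1. The groups overlapped, since TGF-beta1 replicate 2 was above low glucose replicate 2, but Ulk1 was lower in TGF-beta1 within each pair. Ulk1 fell by 0.23 ± 0.075 (1.18-fold; -0.22 and -0.25 within the pairs; limma with the block, adjusted p = 0.013). A second probe set was at -0.08. Leaving out low glucose replicate 1 gave -0.09 and replicate 2 -0.37, and leaving out TGF-beta1 replicate 1 gave -0.08 and replicate 2 -0.40.

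Rb1cc1 (FIP200), the scaffold of that complex, was at 7.30 and 7.29 in low glucose against 7.16 and 7.08 in TGF-beta1. The groups did not overlap, and the difference of -0.17 ± 0.070 did not pass (adjusted p = 0.068 with limma and the block). Ulk2, the paralogue of Ulk1, was at -0.06 ± 0.066 and Atg13, the regulatory subunit, at 0.06 ± 0.073. Neither passed. Atg13 stood at 9.01 and 9.10 in array pair 1 and at 8.14 and 8.18 in array pair 2, so its arrays sorted by pair on this probe set. Its other kept sets had differences of -0.11 and 0.12. The first of these did not show that gap, at 7.89 and 7.77 in pair 1 and 8.07 and 7.97 in pair 2.

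Of the 6 genes of the phosphatidylinositol 3-kinase complex and its regulators 0 passed, with differences from -0.16 to 0.05. Pik3r4, the regulatory subunit Vps15, had the lowest value at -0.16 ± 0.065 (-0.22 in pair 1 and -0.10 in pair 2; adjusted p = 0.064 with limma and the block), and its groups did not overlap, at 8.14 and 8.10 against 8.0 and 7.92. With the arrays centred on their medians in place of quantile normalisation it was called. Becn1, the core subunit, was at -0.03 ± 0.081, with opposite signs within the pairs (-0.15 and 0.09). Pik3c3, the catalytic subunit Vps34, was at -0.06, Ambra1 at -0.06, Atg14, the subunit that sends the complex to the site of formation, at 0.03, and Uvrag, its counterpart at endosomes, at 0.05.

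The 6 genes of membrane supply had differences from -0.11 to 0.17 and 0 passed. Wipi2, the phosphoinositide reader that recruits Atg16l1, was at 9.27 and 9.33 in low glucose against 9.53 and 9.40 in TGF-beta1. Its groups did not overlap, and the difference of 0.17 ± 0.082 did not pass (adjusted p = 0.152 with limma and the block), with -0.03 and 0.08 on its other kept probe sets. Vmp1, a lipid scramblase of the endoplasmic reticulum, was at 0.14 ± 0.069, Atg9a at -0.11 ± 0.070, Atg2a at 0.01 and Atg2b at -0.06. Tecpr1, which acts at the fusion of autophagosomes with lysosomes, was at -0.02 ± 0.075.

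Wipi1, the other reader, had the widest gap between array pairs of any member. It was at 10.42 and 10.57 in array pair 1 and at 9.0 and 8.98 in array pair 2, a gap of 1.5, against a difference between groups of 0.07 ± 0.083. Its gap was not seen on all probe sets: a second set was at 8.10 and 8.13 in pair 1 and 8.14 and 8.27 in pair 2. Across the members the gap between pairs was larger than the difference between groups in 28 of 36 (77.8%; 76.2% of all genes). The median absolute gap was 0.27 in members and 0.24 in all genes, and the median absolute group difference was 0.08 and 0.09.

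**Figure D2:**
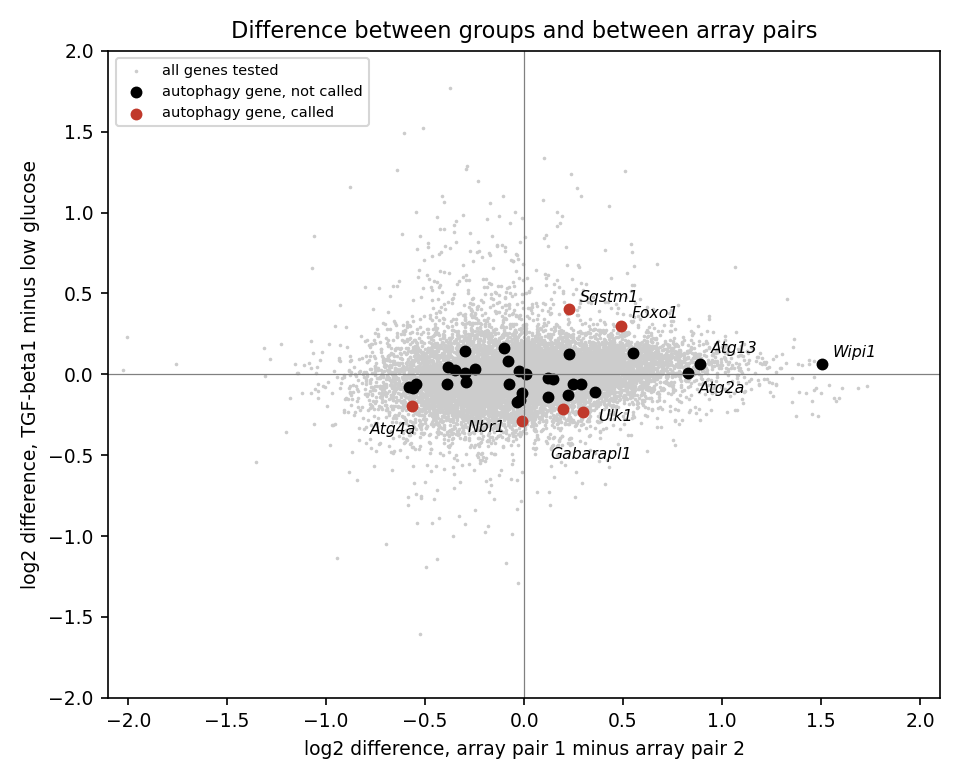
Log2 difference between groups (vertical, TGF-beta1 minus low glucose) against the log2 difference between array pairs (horizontal, pair 1 minus pair 2) for all 13565 genes (grey), the 30 autophagy genes that did not pass (black) and the 6 that did (red). Wipi1, Atg13 and Atg2a lie far to the right near 0 on the vertical axis, while Sqstm1 and Nbr1 lie farther from 0 vertically than horizontally.

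Of the 9 conjugation genes tested 1 fell, and their median difference was -0.05. Atg4a, a protease that trims ATG8 proteins, was at 8.27 and 8.83 in low glucose against 8.64 and 8.06 in TGF-beta1. The groups overlapped widely, and the gap between array pairs, -0.57, was larger than the difference between groups. Atg4a fell by 0.20 ± 0.070 (1.15-fold; -0.21 and -0.19 within the pairs; limma with the block, adjusted p = 0.030), but its second probe set was at 0.12 with both pairs above 0. The adjusted p ranged from 0.0155 to 0.0558 over the settings where the fit with the block kept its own prior, and missed the threshold with no filter. With the block and the prior of the fit without it, limma gave Atg4a an adjusted p of 0.27. Leaving out low glucose replicate 2 turned the difference to 0.08 and leaving out TGF-beta1 replicate 2 to 0.09, against -0.48 for either other array.

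The other trimming proteases did not pass: Atg4b, the main one for LC3 in many cells, was at 0.08 ± 0.078, and Atg4d was at -0.14 ± 0.066 with groups that did not overlap (8.34 and 8.11 against 8.09 and 8.09). The 2 probe sets of Atg4c, both below the filter and not tested, were at 0.06 and -0.12. Atg7, the E1-like enzyme of both conjugation systems, was at 0.12 ± 0.065, with 0.11 on each of its other kept probe sets. The E2-like enzymes Atg3 and Atg10 were at -0.05 ± 0.081 and -0.09 ± 0.071. Atg12 and Atg5, which are joined to each other, were at -0.08 ± 0.077 and 0.03 ± 0.066, and Atg16l1, which carries that conjugate to the membrane, at 0.00013 ± 0.074, with all 4 arrays between 8.69 and 8.71.

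**Figure D3:**
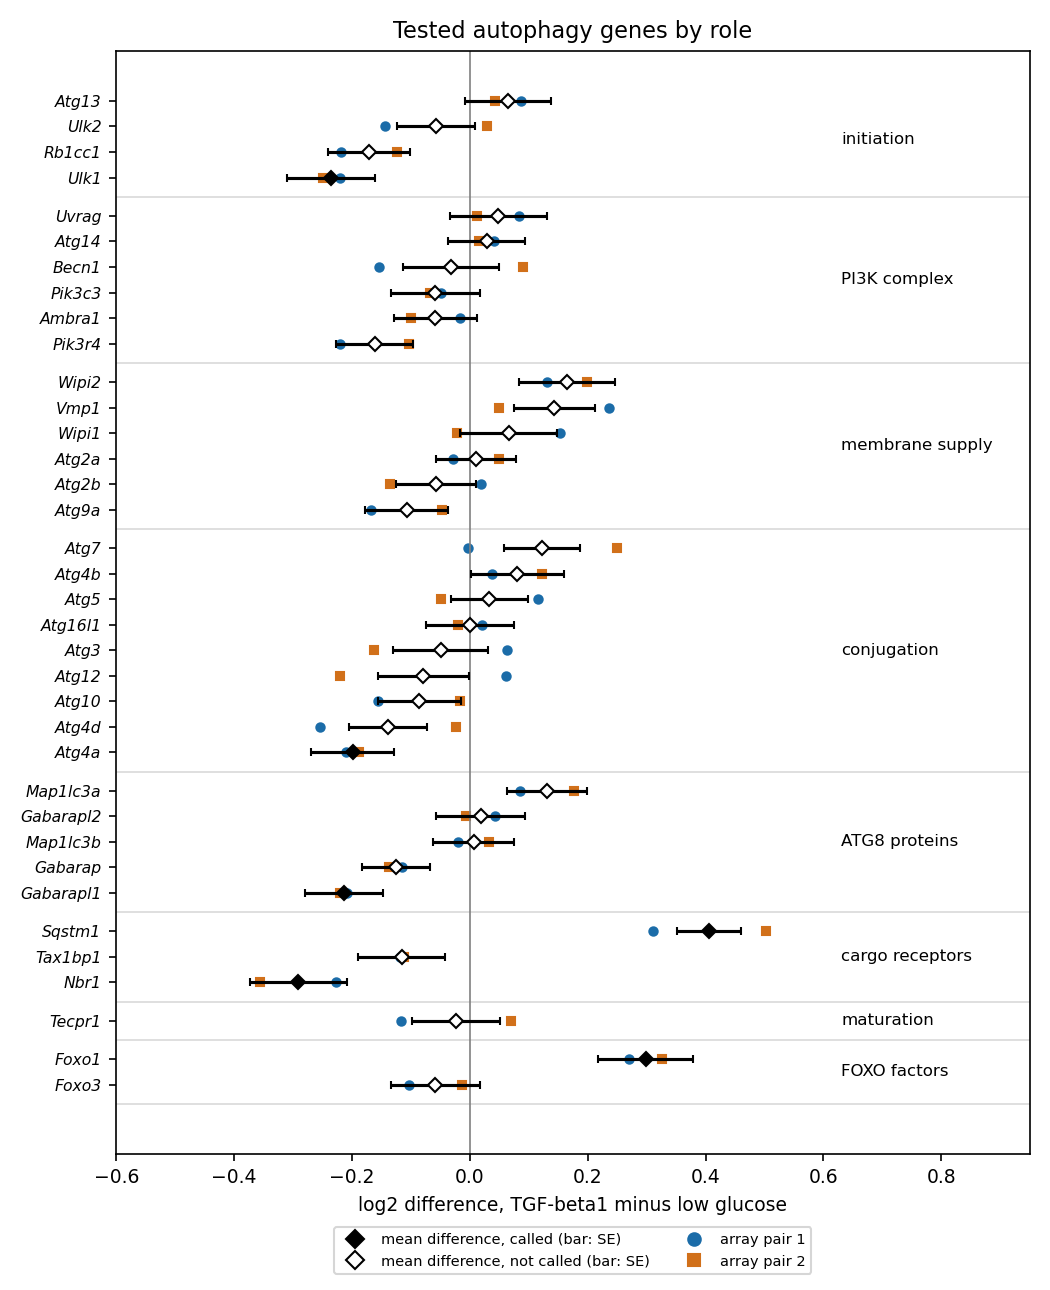
Log2 difference, TGF-beta1 minus low glucose, of the 36 tested autophagy genes by role: diamonds give the mean difference with its standard error from limma with the block (filled where called), circles array pair 1 and squares array pair 2. Most members lie within 0.2 of 0, Sqstm1 is the highest at 0.41 and Nbr1 the lowest at -0.29.

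The FOXO factors, transcription factors that are held in the cytoplasm by insulin and AKT signalling and that induce autophagy genes in muscle and other tissues, had 1 of 2 members that rose. Foxo1 was at 9.37 and 8.85 in low glucose against 9.18 and 9.64 in TGF-beta1. On this probe set the groups overlapped because array pair 1 was 0.49 above array pair 2. Foxo1 was higher in TGF-beta1 within each pair on that set, which is of a kind that can match more than 1 transcript. Foxo1 rose by 0.30 ± 0.081 (1.23-fold; 0.27 and 0.33 within the pairs; limma with the block, adjusted p = 0.0026). Other bright probe sets were at 0.34 and 0.35, each with groups that did not overlap. A dim one, whose groups overlapped, was at -0.03. On the tested set, leaving out low glucose replicate 1 gave 0.56 and replicate 2 gave 0.04. There, leaving out TGF-beta1 replicate 1 gave 0.53 and replicate 2 gave 0.07. Foxo3 was at -0.06 ± 0.075 (-0.04 on its other kept probe set) and did not pass.

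**Figure D4:**
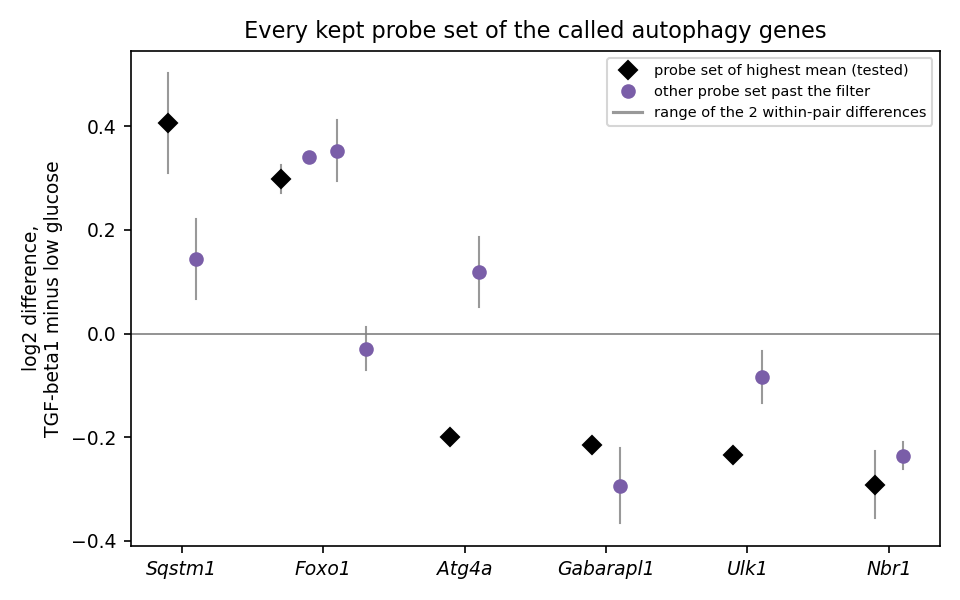
Log2 difference, TGF-beta1 minus low glucose, on every kept probe set of the 6 called autophagy genes; black diamonds are the tested probe sets, purple circles the others, and grey lines join the differences within array pairs 1 and 2. Both sets of Nbr1 and of Gabarapl1 lie below 0, 3 of the 4 of Foxo1 lie near 0.3, and those of Atg4a lie on opposite sides of 0.

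In 8 of the 36 members the groups did not overlap (22.2%, against 20.9% of all genes). TGF-beta1 was above in Sqstm1 and Wipi2 (5.56% of members, 9.83% of all genes) and below in Nbr1, Gabarapl1, Tax1bp1, Rb1cc1, Pik3r4 and Atg4d (16.7%, against 11.1%). In the deposited intensities the groups of Gabarapl1, Rb1cc1 and Atg4d overlapped. The sign was the same within both pairs in 23 members (63.9%; 68.3% of all genes). Below 0 were 20 of the 36 differences (55.6%; 50.1% of all genes).

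Other autophagy genes were read from a further list of 29, of which 28 were tested: 3 rose, 3 fell and 22 did not pass, and the median was -0.02. Of all genes tested, 7.89% rose and 10.6% fell. Nrbf2, a subunit of the phosphatidylinositol 3-kinase complex, was at 8.52 and 8.54 in low glucose against 8.80 and 8.94 in TGF-beta1. It rose by 0.34 ± 0.074 with groups that did not overlap (limma with the block, adjusted p = 7.9e-05). Wdfy3 (ALFY), a scaffold for the clearance of protein aggregates that binds p62, was at 9.99 and 9.95 against 9.58 and 9.66 and fell by 0.35 ± 0.083 (adjusted p = 0.00038 with limma and the block). Its other kept probe sets were at -0.24 and 0.09.

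Fyco1, which links autophagosomes to kinesin motors, fell by 0.31 ± 0.064 (limma with the block, adjusted p = 2.6e-05). Calcoco1, a receptor for the endoplasmic reticulum, fell by 0.28 ± 0.068 (limma with the block, adjusted p = 0.00074), with 0.01 on its other probe set. The arrays of Fyco1 overlapped between groups, at 7.44 and 8.25 against 7.90 and 7.16. Leaving out low glucose replicate 2 turned Fyco1 to 0.09 and TGF-beta1 replicate 2 to 0.06, against -0.73 and -0.67 for the first replicates. Calcoco1 was at -0.13 when low glucose replicate 1 was left out and -0.42 when replicate 2 was. The remaining genes that rose were Eva1a and Sh3glb1, a Becn1 pathway partner, whose other kept probe sets were at -0.03 and -0.08 against 0.24 on the tested one.

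Upstream of the machinery, mTORC1 restrains the ULK1 complex and TFEB, and AMPK and the sestrins act against mTORC1. Of 31 genes of this control layer 26 did not pass, 2 rose and 3 fell, beside 7.89% and 10.6% of all genes, and the median was -0.03. Ddit4 (REDD1), a stress-induced inhibitor of mTORC1, was at 8.71 and 9.15 in low glucose against 9.75 and 9.65 in TGF-beta1. Both TGF-beta1 arrays were above both low glucose arrays, and Ddit4 rose by 0.76 ± 0.081 (1.70-fold; limma with the block, adjusted p = 1.1e-18).

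The sestrins, which bind the GATOR2 complex and activate AMPK, did not move as a group: of Sesn1, Sesn2 and Sesn3, 1 fell and 1 rose. Sesn1 was at 8.64 and 8.66 in low glucose against 8.02 and 7.97 in TGF-beta1, with no overlap, and fell by 0.65 ± 0.068 (1.57-fold; limma with the block, adjusted p = 1.6e-19). Its other kept probe sets were at -0.66 and -0.71. Sesn3, a FOXO target in other cells, was at 7.91 and 8.43 in low glucose against 8.83 and 8.43 in TGF-beta1 and rose by 0.46 ± 0.070 (limma with the block, adjusted p = 1.7e-09). Its other probe set was at 0.08, and leaving out low glucose replicate 1 gave 0.20, low glucose replicate 2 gave 0.70 and TGF-beta1 replicate 1 gave 0.25. Sesn2 was at 0.17 and did not pass (adjusted p = 0.0622 with limma and the block).

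Fnip1, a partner of folliculin, fell by 0.27 ± 0.064, with -0.20 and -0.17 on its other probe sets. The remaining gene that fell was Prkag2, an AMPK subunit, close to the threshold (limma with the block, adjusted p = 0.0496). Its groups overlapped, at 8.64 and 8.81 in low glucose against 8.65 and 8.43 in TGF-beta1. The difference of Prkag2 was -0.19 ± 0.073, with -0.29 and -0.12 on its other kept probe sets. Mtor was at -0.08, Rptor at 0.13, Tfeb at -0.16 and Tfe3 at 0.16, and none of these passed. On the tested probe sets, Ddit4, Sesn1 and Sesn3 had larger absolute differences than any of the 36 members. They were named for the size of their moderated t in these data, so the comparison favours them. The median absolute difference was 0.11 in the 31 genes of the control layer and 0.08 in the members. All 6 members that rose or fell differed by less than 0.5.

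**Figure D5:**
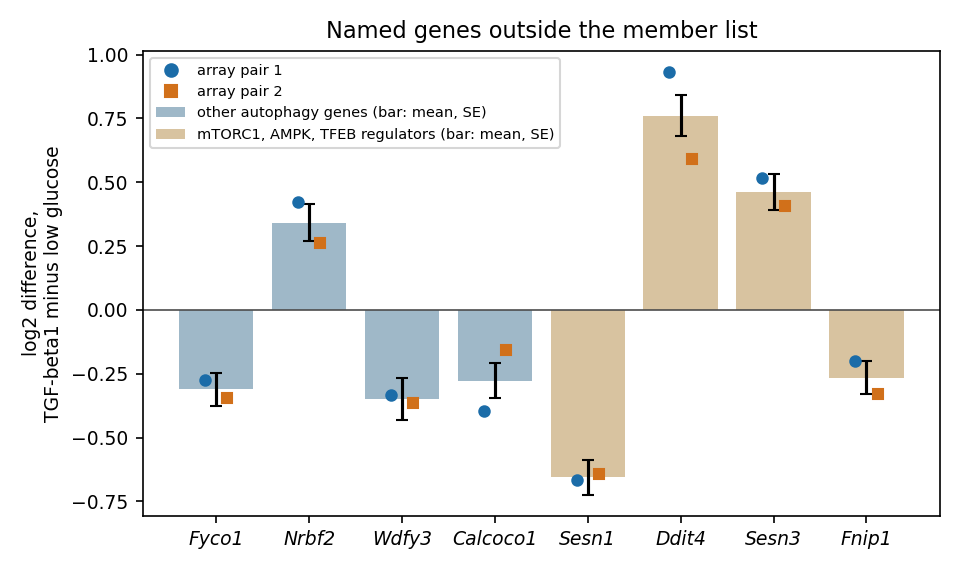
Log2 difference, TGF-beta1 minus low glucose, of the 8 named genes outside the member list: bars are the mean with its standard error from limma with the block (blue for other autophagy genes, tan for regulators), circles array pair 1 and squares array pair 2. Ddit4 is highest at 0.76 and Sesn1 lowest at -0.65, and in all 8 genes both pairs lie on the same side of 0.

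As a check of the labels, 4 tested TGF-beta targets rose, with differences from 0.50 (Smad7) to 1.29 (Pmepa1) and no overlap between groups. Among all genes tested, 7.89% rose and 10.6% fell, and the marker counts below were not tested against these shares. Markers of the labelled cell type were present only in part: of 9 mesangial markers Gata3 and Thy1 were below the filter, and 2 of the 7 tested rose (Acta2 and Vim). Vim had a mean of 12.35, but the other mesangial markers tested had means of 6.85 (Itga8) to 7.54 (Des), with the filter at 6.85. Among tubule epithelium markers Cdh16, Pax8 and Lrp2 had means of 10.83, 9.54 and 8.88. Epcam, Aqp2 and Umod were at 7.98, 7.25 and 7.06, and Cdh1 and Slc12a1 were below the filter. Of 6 tested tubule epithelium markers 2 fell, Cdh16 by 0.31 and Lrp2 by 0.29, and their list had a summed intensity of 3942 and 3404 in low glucose against 3055 and 3207 in TGF-beta1. Macrophage markers had 1 of 5 that fell (Csf1r, by 0.38), with sums of 2000.3 and 1629 against 1311 and 1659, and Ptprc, the pan-leukocyte marker, was below the filter. Podocyte markers had 1 of 3 that rose (Podxl) and 1 that fell (Synpo), with sums of 738 and 580 against 545 and 778. Of 6 endothelial markers 1 was above the filter (Kdr) and did not pass, with list sums of 322 and 262 against 239 and 329. The mesangial sums were 5861 and 4970 against 6001 and 7068, but most of each was Vim, an intermediate filament gene that many cell types express, and the other 8 genes summed to 755 and 624 against 704 and 829. Without Csf1r the macrophage sums were 342 and 355 against 359 and 390, and without Cdh16 the tubule sums overlapped between groups, at 1928 and 1484 against 1373 and 1712. No marker was listed at 0 on all arrays. Fewer cells of a type and less RNA per cell cannot be told apart in such samples, and the part of these markers in the autophagy values was not tested.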

How the data were processed

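Arrays of 1 colour measured total RNA of cells labelled mesangial, 2 arrays per group, with groups taken from the titles. The authors deposited 1 linear intensity per probe set and array. How probes were summarised and arrays scaled is not stated in the sources used here. Array medians were 78.3 to 99.6, and the number of arrays limits the precision. Symbols came from the platform annotation: of 45037 probe sets that are not controls, 34945 had 1 symbol, 932 several and 9160 none.

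The log2 of intensity plus 46.88 (the 25th percentile) was quantile normalised, since array medians differed by 0.227 against a limit of 0.1. Probe sets from the 40th percentile of the mean upward (27022) were kept, and 1 per gene was tested with limma 3.58.1 in R 4.3.3 (lmFit, eBayes with trend, two-sided, Benjamini-Hochberg over all 13565 genes, threshold 0.05), without and with the array pair as a block. Pairs join each low glucose array to the TGF-beta1 array nearest in 18 spike-in probe sets (mean absolute log2 difference 0.048 and 0.077 within pairs, at least 0.937 between). The arrays of pair 1 share a repeat tag in their titles, whose meaning is not stated, and those of pair 2 do not. Correlations across genes were 0.988 and 0.99 within pairs and 0.955 within either group. Replicate numbers follow the order of deposit and pair nothing. Figures used matplotlib 3.10.9 in Python 3.11.15.

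All members were named. From each further list the 4 genes with the largest absolute moderated t with the block were named with full values, and other genes were given to complete a count. Sesn2, Mtor, Rptor, Tfeb and Tfe3, and the remaining genes of small counts, were chosen after their values were seen. The members, lists and the block were chosen with earlier results of these data known.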

Additional observations from a re-analysis of the deposited data

How the results depend on the processing

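With the array pair as a replicate block, 6 autophagy genes passed. The count was 0 with no replicate block, and 0 with the block and the prior of the fit without it. It was 7 of 36 with arrays centred on their medians, where Pik3r4 was added (19.3% of all genes were called). It was 5 of 37 with no filter, where Atg4a was lost (13% of all genes). It was 6 under each of the other settings: pseudocounts of 16 and 100, the authors' scaling, a filter at the 60th percentile, probe sets marked as shared left out, and all kept probe sets. With the filter at the 60th percentile, 34 members were tested and 23.2% of all genes were called. With all kept probe sets 17.6% of probe sets were called, and under the rest 18.4% to 18.8% of all genes. The 6 genes kept their direction under all of these settings. The block, its prior and the filters leave the difference of a probe set unchanged, so they could not turn it. With all kept probe sets, direction was read on the tested set, while another set of Atg4a was at 0.12 and another of Foxo1 at -0.03. Without the block the count was 0, and 6 with the array pair as replicate block. Leaving out each array, which could be done only without the block, gave 0 to 0. Atg4a then ranged from -0.48 to 0.093, and was above 0 where either second replicate was left out (0.079 for low glucose). Leaving out 1 array unbalances the pairs between the groups, so part of the gap between pairs enters these values. With 2 arrays a group and 1 residual degree of freedom, the calls rest on a spread shared between genes of like brightness.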
